A study of Mus with 4 samples.

Results

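Keratins are the filament-forming proteins of epithelial cells, and 49 keratin genes were measured among 19505 named genes on 4 arrays of mouse tumors. Members were all genes whose symbol is Krt followed by digits and, for some, a letter, so that the keratin-associated Krtap genes were left out. They comprised 5 simple epithelial, 15 epidermal or other stratified, 21 hair and 8 other keratins. Of the keratins sorted into these classes, Krt6a, Krt6b, Krt81, Krt83, Krt85 and Krt87 had no probe set with a symbol here and were not analysed.

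The tumors grew from Renca, a mouse line of renal adenocarcinoma. Its cells stably expressed either a control hairpin (shCtrl) or a hairpin that targets the transcription factor Nrf3 (shNrf3). Cells were injected under the skin of the flanks of male BALB/cCrSlc mice, bought at an age of 4 to 6 weeks and kept for 17 weeks either on chow (NC) or on a diet rich in fat (HFD), and tumors were taken 2 weeks after injection. The groups shCtrl-NC, shCtrl-HFD, shNrf3-NC and shNrf3-HFD have 1 array each. The sources used here do not give the number of tumors behind an array, or say whether a hairpin line is 1 clone. A piece of tumor also holds cells of the host. No difference between 2 arrays therefore has a replicate check, and no test of a single comparison was possible.

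Keratins are built as pairs of an acidic type I and a basic type II chain, and each kind of epithelium has its own pairs. KRT8 with KRT18 is the pair of simple, single-layered epithelia, to which KRT7 and KRT19 are added in ducts. KRT5 with KRT14 is the pair of the basal layer of the epidermis, and KRT1 with KRT10 replaces it as cells move up and differentiate. Further sets are made in the root sheath and shaft of the hair. In surgical pathology these patterns are used to name the origin of a carcinoma.

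All values are deposited log2 values, and a difference of 1 is 2-fold. Background was read from 5222 negative control rows, whose medians were 5.35 to 5.39, whose 75th percentiles were 6.58 to 6.82 and whose 95th percentiles were 8.97 to 9.35 on the 4 arrays. A reading below its array's control median was raised to that median before a difference was taken. Where this touched 1 of 2 arrays, the difference is a bound and is written "or more" or "or lower". Where it touched both, no difference is given. Levels of different genes come from different probe sets and were not ranked against each other.

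The targeted gene, Nfe2l3, which encodes Nrf3, was lower with shNrf3 in NC (-0.66) but higher in HFD (0.28). It thus followed the labels in NC only. It read 6.22 on the array labelled shCtrl-NC, 5.56 on shNrf3-NC, 5.77 on shCtrl-HFD and 6.05 on shNrf3-HFD, below the 75th percentile of the controls on each. Every direction below rests on the labels of the arrays. Of 8 measured genes of renal tubule and general epithelium, the 6 kidney genes Pax8, Pax2, Cdh16, Lrp2, Umod and Slc34a1 read below the control median on all 4 arrays, while E-cadherin (Cdh1) read 13.34 to 14.64 and Epcam 9.09 to 11.12. The array labelled shNrf3-NC stood apart in skeletal muscle markers, whose median was 10.21 there against 4.73 to 6.46 on the other 3, and in adipocyte markers, at 11.50 against 6.96 to 8.61.

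The keratins above the 95th percentile of the controls on all 4 arrays were 3 of the 5 simple ones, Krt7, Krt8 and Krt18. Of the 49 genes, 29 read below the control median on every array, 9 on some and 11 on none. At or above the 75th percentile of the controls on at least 1 array were 9 genes, Krt7, Krt8, Krt18, Krt19, Krt1, Krt10, Krt14, Krt77 and Krt80. Of these Krt80 cleared that percentile by the least, 0.61, and among the rest Krt27, Krt16 and Krt5 came closest, at 0.13, 0.15 and 0.21 under it. The epidermal Krt14 reached the 95th percentile on 3 arrays and Krt10 on 1. Of all named genes 9171 reached the 75th percentile on at least 1 array.

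**Figure D1:**
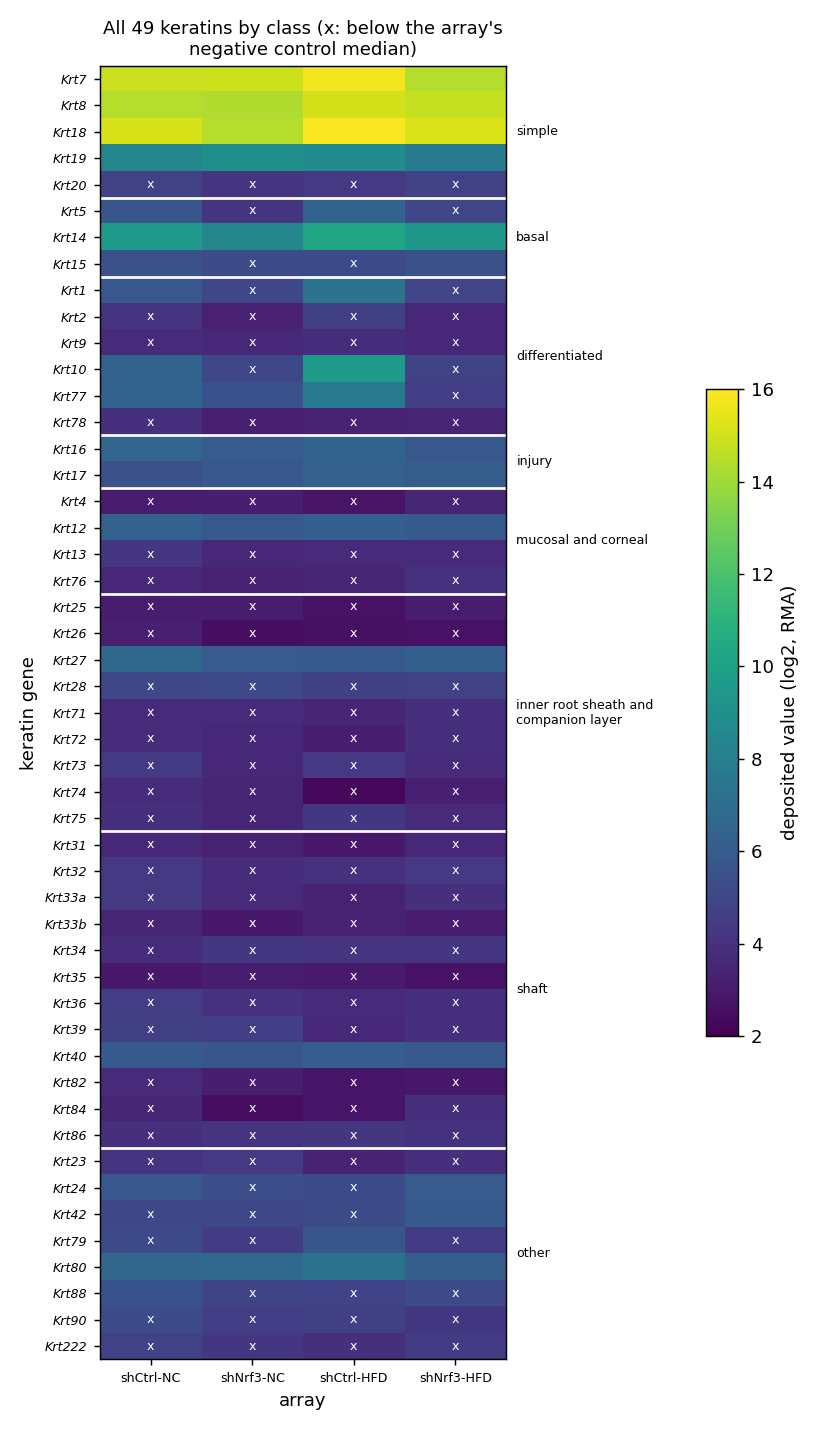
Deposited log2 value of the 49 keratin genes (rows, grouped by class) on the 4 arrays (columns), with a white x on readings below the array's negative control median. Krt7, Krt8 and Krt18 are bright on every array, 19 of the 21 hair keratins are crossed on every array, and Krt10 stands out on shCtrl-HFD alone.

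Among the simple keratins, Krt8 (NCBI Gene 16691), which encodes the type II chain of the simple pair, read 14.42 in shCtrl-NC, 14.32 in shNrf3-NC, 15.08 in shCtrl-HFD and 14.79 in shNrf3-HFD. Its type I partner Krt18 (16668) read 15.17, 14.46, 15.90 and 15.22 in the same order. Both genes were lowest in shNrf3-NC and highest in shCtrl-HFD. In the RefSeq gene order of assembly GRCm38.p6, Krt18 lies next to Krt8 at the end of the run of type II genes, although it is type I. The knockdown difference (shNrf3 minus shCtrl) of Krt18 was -0.71 in NC and -0.69 in HFD, so that it was 1.63-fold and 1.61-fold lower. That of Krt8 was smaller, at -0.10 and -0.29. The chains of the pair thus did not differ by equal amounts between constructs on these arrays, while their diet differences were closer, at 0.74 (Krt18) and 0.65 (Krt8) with shCtrl and 0.76 and 0.47 with shNrf3.

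Krt7 (110310), a type II keratin of ducts and glands, read 14.90 in shCtrl-NC, 14.93 in shNrf3-NC, 15.73 in shCtrl-HFD and 14.43 in shNrf3-HFD. The NC arrays thus lay within 0.02 of each other, and the HFD arrays held the highest and the lowest reading. In HFD it was 2.47-fold lower with shNrf3 (difference -1.31). The sign of its small NC difference depended on the scaling between arrays, from -0.28 to 0.07. Krt19 (16669), the smallest type I keratin, read 8.45, 8.97, 8.73 and 7.77. It differed by 0.53 in NC and by -0.96 in HFD, and with shNrf3 it was 2.31-fold lower in HFD than in NC (-1.21). All 4 readings of Krt19 lay below the 95th percentile of the controls. The remaining member, Krt20, a keratin of intestinal and urothelial cells, read below the control median on all 4 arrays, at 4.18 to 4.78.

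Cdh1, Epcam and plakoglobin (Jup), which are made by epithelial cells of many kinds, were set beside the simple keratins. Cdh1 differed by -0.64 in NC and -0.80 in HFD between constructs, close to Krt18. Epcam differed by -1.56 and -0.49, and Jup by -1.61 and -1.08. All 3 were lowest in shNrf3-NC and highest in shCtrl-HFD, as were Krt8 and Krt18. Krt7 and Krt19 did not share this order, since both were lowest in shNrf3-HFD and Krt19 was highest in shNrf3-NC. Fewer epithelial cells in a tumor and less RNA per cell cannot be told apart in such bulk samples. The intermediate filament gene of mesenchymal cells, vimentin (Vim), read 18.88 in shCtrl-NC and 19.52 to 19.66 on the other 3 arrays. Of the 16 other intermediate filament genes measured, 1 was at least 2-fold higher with shNrf3 in NC and none in HFD, and none was lower in either diet. That gene was desmin (Des), a muscle gene, at 3.31 or more. Muscle markers were higher on the same array, and their part in the keratin values was not tested.

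**Figure D2:**
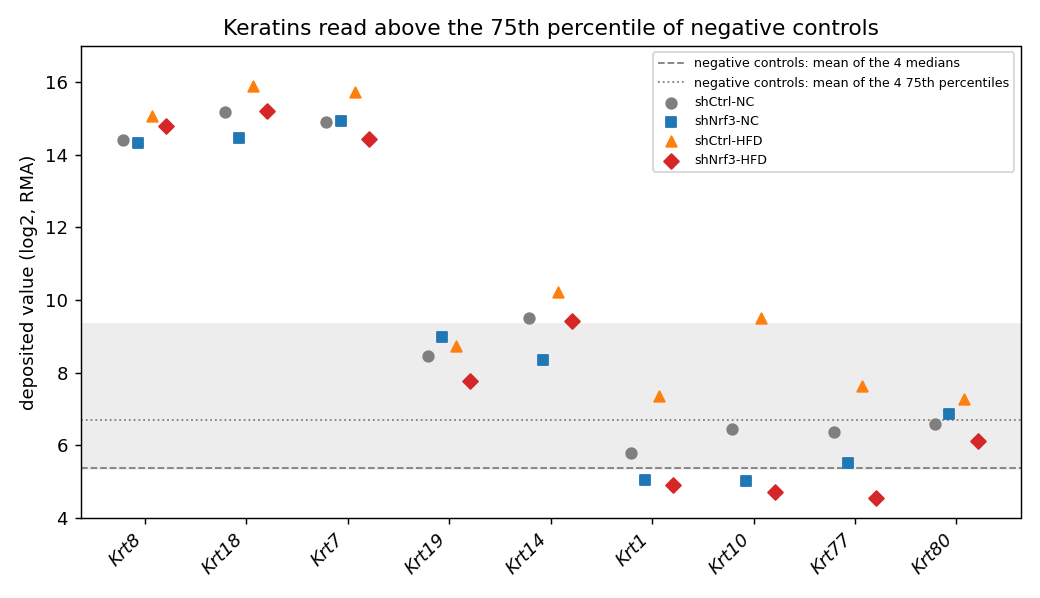
Deposited log2 value of the 9 keratins that reached the 75th percentile of the negative controls, with 1 symbol for each array. The grey band runs from the lowest control median to the highest 95th percentile, and the lines are means over the 4 arrays of the control medians (dashed) and 75th percentiles (dotted). Krt8, Krt18 and Krt7 lie far above the band, and Krt1, Krt10 and Krt77 lie clear above the dotted line on shCtrl-HFD alone.

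The epidermal keratins were nearer to background and showed the largest differences. Krt10 (16661), the type I keratin of differentiated epidermis, read 6.45 in shCtrl-NC, 5.02 in shNrf3-NC, 9.50 in shCtrl-HFD and 4.72 in shNrf3-HFD. Its type II partner Krt1 (16678) read 5.78, 5.05, 7.37 and 4.90. Krt77 (406220), a further type II keratin of skin, read 6.38, 5.51, 7.64 and 4.55. Each of the 3 was highest in shCtrl-HFD and next in shCtrl-NC. They reached the 75th percentile of the controls, the level for giving single readings here, on shCtrl-HFD alone. Their peak there is thus part of how they were chosen. On the arrays labelled shNrf3 the only reading above the control median was that of Krt77 in NC.

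Between constructs in HFD, Krt10 was at least 17.3-fold lower with shNrf3 (-4.12 or lower). Krt77 differed by -2.25 or lower and Krt1 by -1.98 or lower, at least 4.77-fold and 3.94-fold. In NC the differences had the same sign and were smaller, -1.10 or lower for Krt10, -0.86 for Krt77 and -0.43 or lower for Krt1. By diet with shCtrl the 3 genes were higher in HFD, Krt10 by 3.05 (8.30-fold), Krt1 by 1.59 (3.01-fold) and Krt77 by 1.27 (2.40-fold). With shNrf3 no diet difference can be given for Krt10 and Krt1, since both arrays read below the control median, and that of Krt77 was -0.12 or lower. The HFD knockdown comparison and the shCtrl diet comparison share the array labelled shCtrl-HFD and are not independent of each other. The remaining keratins of differentiated epidermis, Krt2, Krt9 and Krt78, read below the control median on all 4 arrays.

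Of the genes next to Krt10 and Krt1 in the keratin clusters, Krt77 had the readings described above. The other 3 did not reach the 75th percentile of the controls on any array. Of them Krt2 and Krt28 read below the control median on all 4 arrays, so that the order of their readings was not assessed. In RefSeq gene order Krt10 lies between Krt28 and Krt12. Krt28, of the hair root sheath, read 4.65 to 5.08, and Krt12, of the cornea, 5.88 to 6.33, with no difference of 2-fold in any comparison. Krt1 lies between Krt2, at 3.29 to 4.67, and Krt77. Of the 48 keratins found among protein-coding genes of that assembly, 41 have a keratin on each side and all have a keratin on at least 1 side.

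The basal keratin Krt14 (16664) read above the 75th percentile of the controls on all arrays, at 9.52 in shCtrl-NC, 8.35 in shNrf3-NC, 10.22 in shCtrl-HFD and 9.43 in shNrf3-HFD. It was 2.25-fold lower with shNrf3 in NC (-1.17) and 1.72-fold lower in HFD (-0.78). It was higher in HFD with either construct, by 0.70 with shCtrl and 1.08 with shNrf3. It thus lay lower with shNrf3 in each diet and higher in HFD with each construct. Its partner Krt5 (110308), chosen for mention after its values were seen, read 5.76, 4.18, 6.45 and 5.0 and so was highest in shCtrl-HFD too, but stayed below the 75th percentile of the controls and, with shNrf3, below their median. Krt15, which marks basal and hair follicle stem cells, read 5.15 to 5.46 on the 4 arrays, around the control median. Krt16 and Krt17, made by keratinocytes on injury, read 5.78 to 6.56 and 5.46 to 6.29, with no difference of 2-fold. Of the mucosal and corneal keratins, Krt4, Krt13 and Krt76 read below the control median throughout.

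The hair keratins were at background. Of the 21 genes, 19 read below the control median on all 4 arrays, and none reached the 75th percentile on any. The exceptions were Krt27, of the inner root sheath, at 5.83 to 6.69, and Krt40, of the hair shaft, at 5.72 to 6.16. No hair keratin differed 2-fold in any of the 4 comparisons. Of the Krtap genes, whose proteins bind hair keratins, 38 of 50 read below the control median on every array, but 5 reached the 75th percentile on at least 1, among them Krtap17-1 at 6.72 to 7.07 on all 4. For diet with shNrf3, 2 Krtap genes were at least 2-fold higher in HFD and 1 lower, beside 0.984% and 2.67% of all named genes. Of 11 measured genes of the hair follicle, 8 were below it on every array. Sox9, which is also made by many non-hair cells, read 9.59, 9.73, 11.48 and 9.60. It was the 1 gene of that list at least 2-fold lower with shNrf3 in HFD (-1.88), beside 3.69% of all named genes.

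Among the other keratins, Krt80 (74127), a type II keratin found in many epithelia, read 6.60 in shCtrl-NC, 6.85 in shNrf3-NC, 7.27 in shCtrl-HFD and 6.11 in shNrf3-HFD. In HFD it was 2.23-fold lower with shNrf3 (-1.16), and in NC it differed by 0.24. With each array centred on the median of genes past the filter on level, a setting added after the data were seen, the HFD difference was -0.95 and so under 2-fold. Krt23, Krt90 and Krt222 read below the control median on all arrays, and Krt24, Krt42, Krt79 and Krt88 on 2 or 3 of them.

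Counted over all 49 genes, shNrf3 in NC had 2 keratins at least 2-fold lower, Krt10 and Krt14, and 0 higher. Of all named genes 2.48% were lower and 6.9% higher in that comparison. In HFD 6 keratins were lower, Krt1, Krt5, Krt7, Krt10, Krt77 and Krt80, and 0 higher, beside 3.69% and 1.24% of all named genes. Among genes with a reading at or above the 75th percentile of the controls, the NC share was 4.48% lower and 14.9% higher, and the HFD share 7.73% lower and 2.35% higher. With that filter on the keratins too, 1 was lower in NC and 5 in HFD, and 0 were higher in either. In the same HFD comparison all 5 measured fibroblast, 5 of 6 adipocyte, 3 of 5 endothelial and 4 of 11 muscle markers were at least 2-fold lower. In NC 8 of 11 muscle and 4 of 6 adipocyte markers were higher and 3 of 5 endothelial and 2 of 5 fibroblast markers lower. Their part in the keratin counts was not tested. Only Krt10 among the keratins was lower in both diets, a pattern that 0.42% of all named genes had. Its NC difference lies near background. It read 6.45 in shCtrl-NC, under the 75th percentile of the controls, and 5.02 in shNrf3-NC, below their median. Of the 6 keratins lower in HFD, 4 were epidermal, 1 simple and 1 other. Median differences for simple, epidermal and hair keratins were -0.04, -0.10 and -0.04 in NC and -0.69, -0.15 and 0.03 in HFD. Over all named genes they were -0.04 and 0.03, and over genes past the filter on level 0.14 and -0.14. The values -0.04 and 0.03 are the offset between control medians, since they come from genes raised to it on both arrays. In the simple class the NC value is that of Krt20, and with readings left as deposited it was -0.10.

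For diet with shCtrl, 3 keratins were at least 2-fold higher in HFD, Krt1, Krt10 and Krt77, and 0 lower, beside 7.59% and 2.13% of all named genes. With shNrf3, 1 was higher, Krt14, and 1 lower, Krt19, beside 0.984% and 2.67%. Among genes with a reading at or above the 75th percentile of the controls, 16.2% were higher and 3.62% lower with shCtrl, and 1.79% and 5.7% with shNrf3. With that filter on the keratins too, their counts were unchanged. Over genes past the filter on level the median difference was 0.26 with shCtrl and -0.03 with shNrf3. The median of the simple keratins was 0.65 with shCtrl, and 0.29 to 0.7 over the settings run. Their median with shNrf3 fell on Krt20, below the control median on both arrays, and was 0.47 with readings left as deposited. Those of epidermal and hair keratins, -0.03 with shCtrl and 0.04 with shNrf3, are again the offset between control medians. With shNrf3, 8 of 11 muscle, 4 of 6 adipocyte and 3 of 5 fibroblast markers were at least 2-fold lower in HFD. With shCtrl, 3 of 6 adipocyte and 2 of 11 muscle markers were higher and 2 of 5 fibroblast markers lower. Their part in these counts was not tested either.

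The split of higher and lower calls over the whole array depended on scaling, which touches every count above. In NC 73.6% of the genes that differed 2-fold were higher with shNrf3, and 51.2% after centring on genes past the filter. In HFD the share was 25.1% and 57.3%. For diet it was 78.1% and 41.8% with shCtrl (62.5% after cyclic loess) and 27.0% and 42.1% with shNrf3. After that centring, 4 keratins were lower with shNrf3 in HFD (Krt1, Krt7, Krt10 and Krt77) and 3 in NC (Krt10, Krt14 and Krt77), beside 1.93% and 4.5% of all named genes, with 0 higher in either. For diet with shCtrl, Krt1 and Krt10 were then higher and Krt27 lower, beside 3.65% and 5.08% of all named genes, while Krt77 came to 0.95. After cyclic loess Krt18 joined Krt10 and Krt14 as lower in NC, at -1.01.

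**Figure D3:**
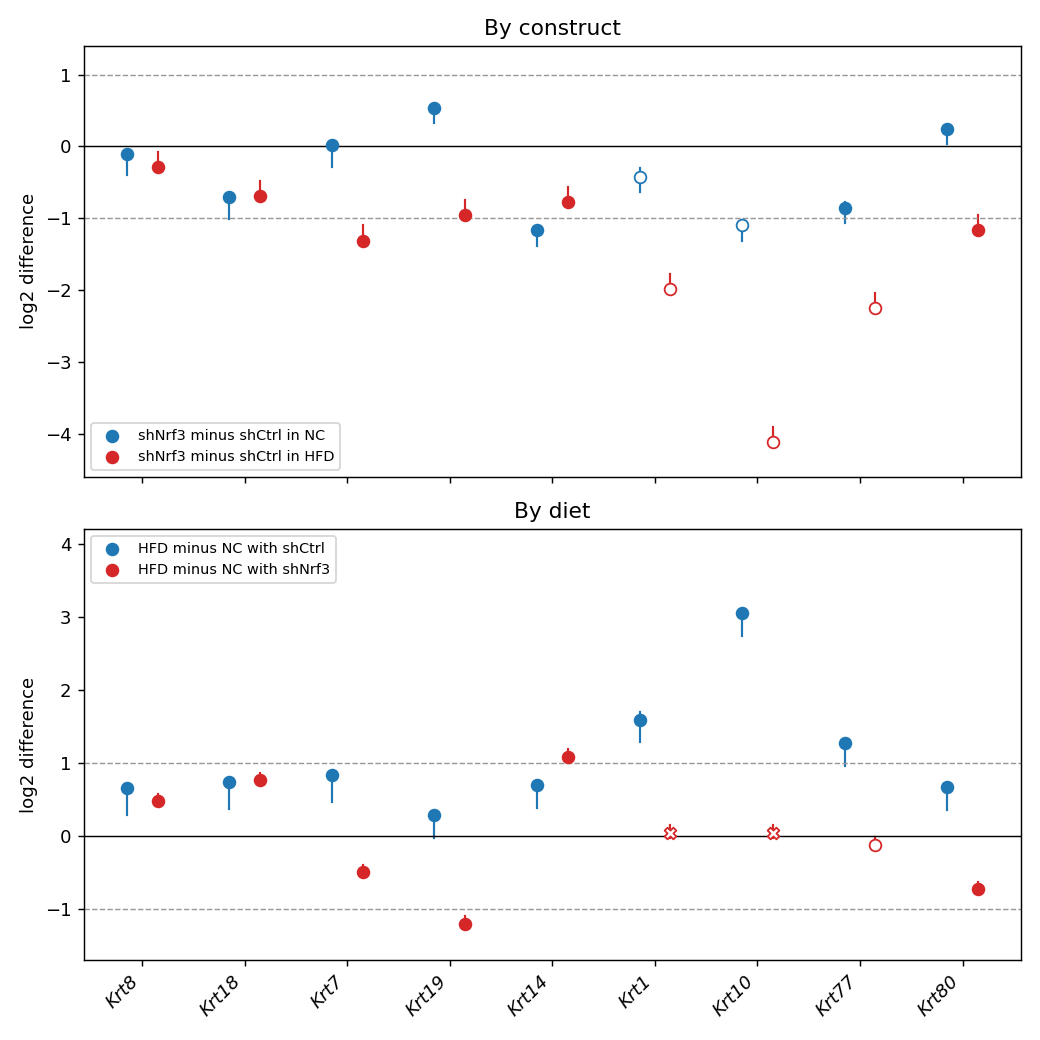
Log2 difference of the 9 keratins by construct (top, shNrf3 minus shCtrl) and by diet (bottom, HFD minus NC). Filled circles are differences of 2 readings above the control median, open circles are bounds, crosses mark genes below it on both arrays, vertical lines span 4 scalings between arrays (deposited, cyclic loess and 2 centrings), and dashed lines mark 2-fold. Krt10 has the largest difference in HFD by construct, -4.12 or lower, and with shCtrl by diet, 3.05.

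The construct by diet difference subtracts the NC knockdown difference from the HFD one. It was -1 or lower for 6 keratins and 1 or more for 2, beside 11.5% and 3.8% of all named genes, and 23.3% and 5.64% of those with a reading at or above the 75th percentile of the controls. With that filter on the keratins too, 6 were lower and 0 higher. After centring on genes past the filter, 3 keratins were lower (Krt1, Krt10 and Krt19) and 3 higher (Krt24, Krt27 and Krt42), beside 5.89% and 8.91% of all named genes. On the deposited scale, with readings raised to the control median, the 6 were Krt10 (-3.01), Krt1 (-1.55), Krt19 (-1.49), Krt80 (-1.40), Krt77 (-1.39) and Krt7 (-1.33). Krt24 (1.12) and Krt27 (1.07) went the other way at levels under the 75th percentile of the controls. For Krt7, Krt19 and Krt80 all 4 readings lay above the control median, so that none was raised. For Krt10 and Krt1 the knockdown differences in both diets are bounds, so that the values given are bounds in neither direction. Krt8 and Krt18 had values of -0.19 and 0.02, and with Krt14 (0.39) they were the strongly read keratins whose knockdown differences had the same sign in both diets.

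A limma model with additive terms for construct and diet, fitted to 10021 genes past a filter on level, held 14 of the 49 keratins (4 simple, 7 epidermal, 2 hair and 1 other). The filter took the mean over the 4 arrays, so that Krt10, Krt77 and Krt1 passed only through their readings in shCtrl-HFD. Without that array their means were 5.40, 5.48 and 5.24, under the filter at 5.73. The model's single error estimate comes from the construct by diet difference, so it does not measure how tumors of 1 group vary. At an adjusted p under 0.05 this limma fit called 0 genes (0% of those tested) for construct and 0 for diet, with 447 and 292 at an unadjusted p under 0.05. Of the keratins 4 were among the 447, Krt10, Krt77, Krt1 and Krt14, and 0 among the 292. Averaged over diets, the construct difference of Krt14 was -0.98 ± 0.39 (SE), lower in 2 of 2 diets, with a limma adjusted p of 0.961. The fitted differences of the other 3 rest on readings below the control median and are not given. In 7 limma fits that held Krt10 the adjusted p ran from 0.0162 to 0.983, and the lowest came from centring on genes past the filter, the added setting. It ran from 0.125 to 0.983 for Krt77, from 0.24 to 1 for Krt1 and from 0.654 to 1 for Krt14.

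Genes that work with epidermal keratins were examined on the same arrays. Of 26 measured genes of the cornified envelope, the protein shell of dead surface keratinocytes, 15 read below the control median on all 4 arrays. Krtdap, a gene of differentiating keratinocytes, read 5.87 in shCtrl-NC, 4.73 in shNrf3-NC, 7.31 in shCtrl-HFD and 4.65 in shNrf3-HFD. Hornerin (Hrnr), a barrier protein related to filaggrin, read 4.65, 4.45, 6.63 and 4.14. They were the 2 genes of the list at least 2-fold lower with shNrf3 in HFD, by 1.92 or more and 1.24 or more on the log2 scale, and 0 were higher. In that comparison 3.69% of all named genes were lower, and 7.73% of those with a reading at or above the 75th percentile of the controls. Krtdap and Hrnr were both highest on shCtrl-HFD, as were Krt1, Krt10 and Krt77. Both sets were picked through that array. The keratins reached the 75th percentile of the controls on it alone, and Krtdap and Hrnr were named for their difference from it. The shared peak is therefore not separate support. Transglutaminase 1 (Tgm1), which cross-links the envelope, went otherwise, at 7.64, 6.57, 6.66 and 7.63, and was 2.09-fold lower with shNrf3 in NC (-1.07). Lgals7, a lectin of stratified epithelia, read 8.34, 8.54, 9.11 and 9.71, highest in shNrf3-HFD. The summed level of the 26 genes (log2) was 10.11, 9.87, 10.56 and 10.62. In shNrf3-HFD 20 of the 26 lay below the control median, while Lgals7 alone read 9.71. The sum therefore does not stand for the list as a whole.

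The keratinocyte markers hold 5 of the keratins above and 6 other genes. Of the 11, 5 were at least 2-fold lower with shNrf3 in HFD, the keratins Krt1, Krt5 and Krt10 besides Dsg1a and Dsc3. In NC 2 were lower, the keratins Krt10 and Krt14. Of all named genes 3.69% were lower in HFD and 2.48% in NC. The summed level of the 11 genes (log2), keratins included, was 10.69 in shCtrl-NC, 10.07 in shNrf3-NC, 11.69 in shCtrl-HFD and 10.66 in shNrf3-HFD. Among the 6 others, the desmosomal cadherin genes Dsg1a and Dsc3 were lower with shNrf3 in HFD by 1.25 or more and 1.07 or more, from readings of 6.64 and 6.45 on shCtrl-HFD. Trp63, the master regulator of stratified epithelium, read 5.41, 4.58, 4.78 and 5.80, with its highest reading in shNrf3-HFD. Dsg3, a cadherin of basal keratinocytes, read below the control median on all 4 arrays. Sfn and Perp, also made by other epithelia, read 7.29 to 7.84 and 8.44 to 9.34, with no difference of 2-fold. Skin can also hold pigment and sebaceous cells. All 5 melanocyte markers read below the control median on every array, as did 4 of 5 sebaceous gland markers. The remaining sebaceous marker, Scd3, read above it on all 4, at 6.23, 6.19, 6.76 and 6.19. It reached the 75th percentile of the controls on shCtrl-HFD alone. The part of skin tissue in the epidermal keratin readings was not tested.

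**Figure D4:**
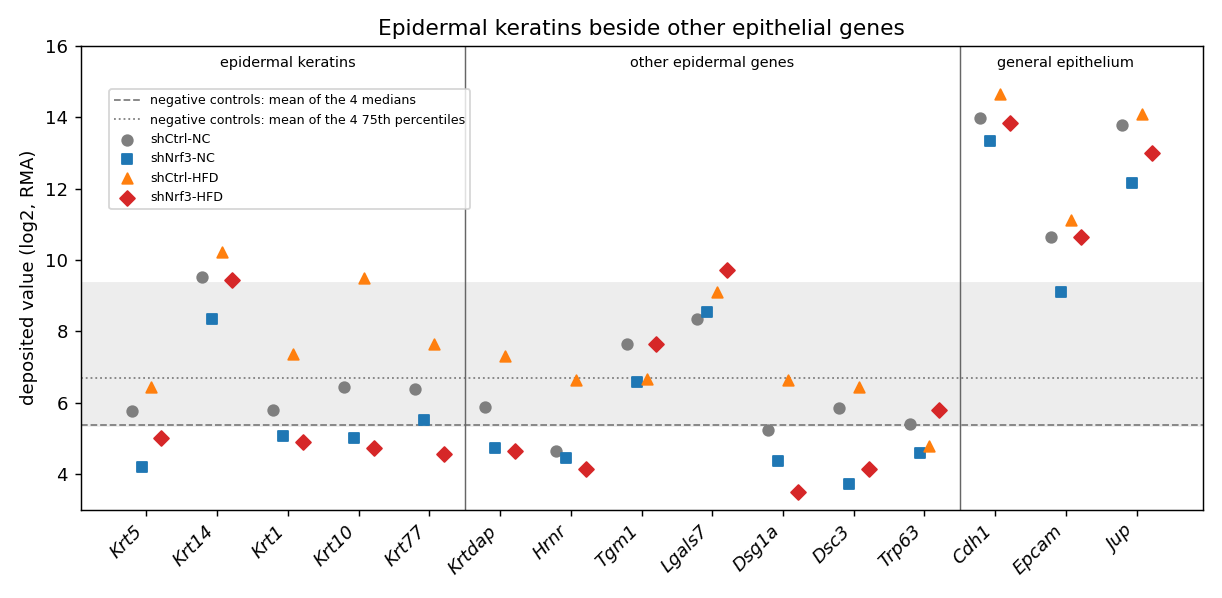
Deposited log2 value on the 4 arrays of 5 epidermal keratins, 7 other epidermal genes and 3 genes of epithelium in general, with the grey band and lines for the negative controls as in the plot of keratin levels. Most genes shown were included for their differences: all but Tgm1, Lgals7 and Trp63 have their highest reading on shCtrl-HFD, and Krt1, Krt5, Krt10, Krtdap, Hrnr, Dsg1a and Dsc3 lie under the dashed line on both shNrf3 arrays.

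Proteins that tie keratin filaments to junctions followed no common order. Of 12 measured partners, 1 was at least 2-fold higher with shNrf3 in NC, the cytolinker periplakin (Ppl, 1.75), and 1 lower, Jup. In HFD 0 were higher and 1, Jup, was lower. Of all named genes 6.9% were higher and 2.48% lower with shNrf3 in NC, and 1.24% and 3.69% in HFD. Desmoplakin (Dsp), the main anchor of keratins at desmosomes, read 8.90, 8.28, 9.13 and 9.56, and was 2.43-fold higher in HFD than in NC with shNrf3 (1.28). With shCtrl, Ppl (2.49) and the hemidesmosome integrin gene Itgb4 (1.28) were higher in HFD, and trichoplein (Tchp), a keratin-binding protein, was lower (-1.02). By diet 7.59% of all named genes were higher and 2.13% lower with shCtrl, and 0.984% and 2.67% with shNrf3. Of 11 measured regulators of epidermal fate, Klf4 was the one at least 2-fold lower with shNrf3 in HFD (-1.67), and 0 were 2-fold higher or lower in NC.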

How the data were processed

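RNA of 4 tumor samples was measured on 1 Affymetrix array each, with 100 ng of total RNA labelled with biotin, per the labels' protocols. The authors deposited log2 values made with Affymetrix Expression Console and RMA, per the submitters' processing notes; the sources used here give no versions and no genome build. The deposited table holds 28846 rows, 22206 of them transcripts. The platform annotation names 19572 probe sets by 1 symbol and leaves 2634 transcript rows unnamed here; all its Entrez IDs matched the RefSeq table of GRCm38.p6, used for names and gene order only. For 55 genes with several probe sets the one with the highest mean was used; each keratin had 1. Probe sets of closely similar keratins may share signal.

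Differences were taken between arrays and genes at 2-fold or more counted. The additive model used limma 3.58.1 in R 4.3.3 (lmFit, eBayes, Benjamini-Hochberg) on values as deposited, over genes with a mean of at least 5.73, the median over all rows. It was tested on simulated data. Alternatives were cyclic loess, centring, values not raised to the control median, averaged probe sets, 1.5-fold, and other filters. Members, classes and lists were chosen with earlier results of these data known. Keratins at or above the 75th percentile of the controls on at least 1 array are given on all 4 arrays, others by range, and 2 to 4 members of other lists by size of difference. The arrays' number limits the precision.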

Additional observations from a re-analysis of the deposited data

Results flagged for a closer look

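Krt80 differed between diets in opposite ways with the 2 constructs. It was higher in HFD with shCtrl (0.67 on the log2 scale) and lower in HFD with shNrf3 (-0.73). All 4 of its readings lay between 6.11 and 7.27, near the 75th percentile of the negative controls, and with 1 array per group the opposition was not tested. Over the scalings run the differences were 0.36 to 0.72 and -0.75 to -0.63.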

How the results depend on the processing

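For the 9 keratins read at or above the 75th percentile of the controls, no difference of at least 2-fold in the 4 comparisons changed sign under the alternatives run, and the 12 class medians moved by less than 1.5-fold under each alternative run for them. The small differences of Krt7 between constructs in NC and of Krt19 between diets with shCtrl did change sign, over -0.28 to 0.07 and -0.03 to 0.33. The causes of the changes below were not tested unless the setting itself makes them. At 1.5-fold in place of 2-fold, 5 of 49 keratins were lower with shNrf3 in NC (7.97% of all named genes), and in HFD 10 were lower (11.1%) and 2 higher (5.19%). By diet 10 were higher (16.6%) and 1 lower (6.54%) with shCtrl, and 4 higher (5.14%) and 2 lower (7.86%) with shNrf3. With readings below the control median left as deposited, 1 keratin was higher with shNrf3 in HFD. By diet 3 were then lower in HFD with shCtrl and 2 higher in HFD with shNrf3, and the construct by diet difference had 8 higher. The share of all named genes at this setting is not given here, so these 4 counts have no background beside them. With readings so left, Krt10 and Krt77 differed by -4.79 and -3.10 between constructs in HFD, and Krt77 by -0.97 between diets with shNrf3. With the higher array required to reach the 75th percentile of the controls, 1 keratin was lower with shNrf3 in NC and 0 were higher in the construct by diet difference, where cyclic loess also left 0. Centring on genes past the filter, added after the data were seen, gave 1 keratin lower in HFD with shCtrl and 3 lower and 3 higher in the construct by diet difference. With it the limma fit called 25 genes for construct, 1 keratin (Krt10) among them, and 10 genes for diet, with smallest adjusted p of 0.0009 and 0.00241. The other 7 limma fits called 0 genes for either. Krt10 passed the filter on level only through its reading in shCtrl-HFD, and it read below the control median on both shNrf3 arrays. Its call is therefore not read as a result about construct. No paired analysis was possible because each group has 1 array.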
